A study of Mus musculus with 3 samples.

Results

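The genes described here are 10 mouse genes by which cells sense microbes: the Toll-like receptors Tlr1, Tlr2, Tlr3, Tlr4, Tlr5 and Tlr9, their adaptor Myd88, and the NOD-like receptors Nod1, Nod2 and Nlrp6. They were chosen by name, and every probe set whose only gene symbol in the platform annotation is one of these names was taken. That gave 13 probe sets of 45101 on the array, for 9 of the 10 genes, among 18193 genes with a probe set of their own. Nod2 had no probe set with its symbol as the only one and has no expression value here. Tlr4 had 4 probe sets and Tlr3 had 2, and the 7 other measured genes had 1 each.

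RNA came from follicle-associated epithelium, the epithelial sheet over the lymphoid follicles of the small intestine, in which M cells take up luminal particles. The depleted group is 2 arrays from C57BL/6 mice of genotype VillinCre-Rbpjflox/flox, in which a Cre recombinase driven by the Villin promoter, active in intestinal epithelium and not in blood cells, removes Rbpj. RBP-J binds DNA and is the nuclear partner of activated Notch receptors. The other group is 1 array from wild type C57BL/6 mice, and all samples are described as untreated. The labels do not state whether the wild type mice carried the floxed allele or the Cre, nor the animals' age, their number or any pooling, so the spread between the 2 depleted arrays may be technical. The comparison asks how RNA levels differ between the arrays labelled depleted of RBP-J and wild type.

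Toll-like receptors are membrane proteins with a leucine-rich repeat ectodomain that binds microbial molecules and a cytoplasmic TIR domain that recruits adaptors. Most of them signal through Myd88 to IRAK kinases, TRAF6 and NF-kB. NOD-like receptors are cytosolic: Nod1 and Nod2 bind fragments of bacterial peptidoglycan and signal through the kinase Ripk2, whereas Nlrp6 can act through the adaptor Pycard and caspase-1. In the gut epithelium these sensors are known for roles in barrier defence, mucus secretion and the release of antimicrobial peptides in response to the microbiota.

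Values are microarray intensities in multiples of the array's median, so that 1 is the median probe set. Differences are depleted minus wild type on the log2(value + 0.248) scale, on which changes of dim genes are understated. Detection calls were not used here, so a dim value cannot be told from an absent transcript. Levels of different probe sets are not directly comparable, and sums of markers given below rest mostly on their brightest probe sets. The median log2 difference over the 11885 genes tested was -0.003 in depleted array 1 and 0.22 in depleted array 2, a shift to be kept in mind for every value of depleted array 2. Rbpj, by its brightest probe set, read 2.72 and 5.74 in the depleted arrays and 7.15 in wild type, and did not pass the test (limma adjusted p = 0.9997). Another Rbpj probe set read 4.14 and 4.92 against 5.37. The third read 2.30 and 4.21 against 3.79, higher than wild type in depleted array 2, so that Rbpj levels do not bear out the label of that array on every probe set. The position of these probe sets relative to the floxed exons was not given in the sources used, and a probe set outside them does not check the deletion. The X-linked Xist read 42.8 and 43.4 in the depleted arrays and 0.297 in wild type. The Y-linked Eif2s3y read 0.122 and 0.056 against 20.6. By these genes both depleted arrays read as female and the wild type array as male. Sex and genotype therefore cannot be told apart in these 3 arrays for any gene, sex-linked or not.

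No sensor passed the test. Of the 10 genes, 7 were bright enough to be tested and none was called by limma at an adjusted p under 0.05, a threshold that 0.0841% of all tested genes passed. None of the 7 had an unadjusted p under 0.05 either, against 2.27% of all tested genes, and the lowest unadjusted p was 0.208. None differed from wild type by 2-fold or more in each of the depleted arrays, which held for 1.33% of tested genes. Wild type lay outside the 2 depleted arrays for 4 of the 7, against 58.5% of all tested genes: Tlr3 and Nod1 were higher in both depleted arrays, and Myd88 and Nlrp6 were lower in both. Over all tested genes, 39% were higher in both and 19.5% lower in both. Relative to each array's median the 7 genes split in the same way, 2 higher and 2 lower, against 29.9% of all tested genes in each direction. For Tlr1, Tlr4 and Tlr9 the wild type value lay between the depleted ones.

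**Figure D1:**
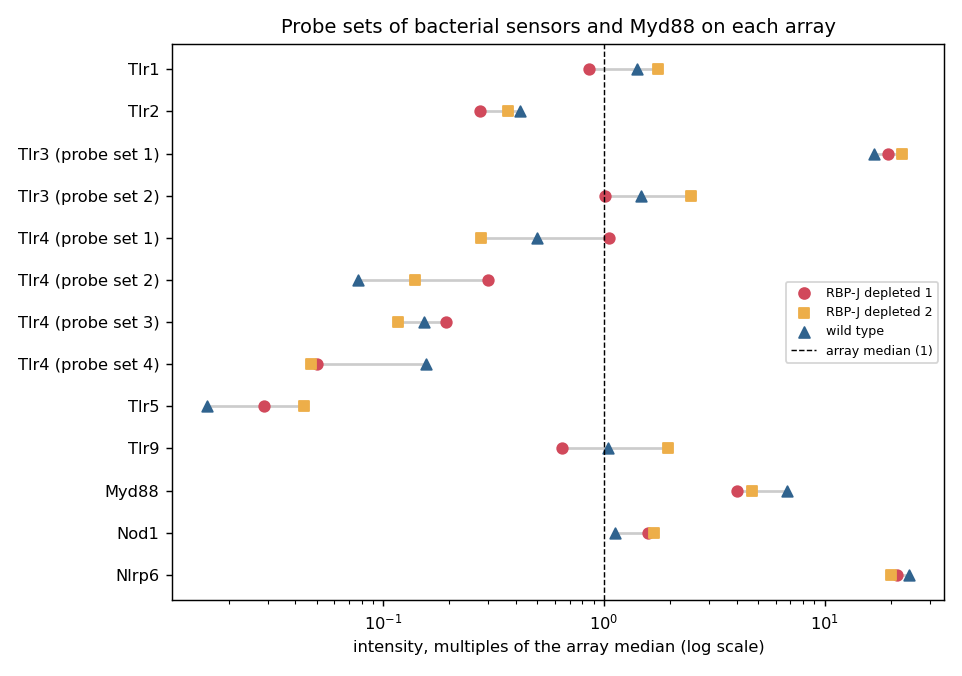
Intensity of every probe set of the sensors and Myd88 on RBP-J depleted array 1 (circles), depleted array 2 (squares) and the wild type array (triangles), in multiples of the array median on a log axis; the dashed line is the median, and probe sets of 1 gene are numbered from the brightest. The probe sets of Nlrp6 and Myd88 and the first of Tlr3 lie well above the median on all 3 arrays, and those of Tlr2 and Tlr5 and 3 of the 4 of Tlr4 lie below it.

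Since RBP-J binds DNA, the 250 bases before the annotated start of each gene were searched for its recognition sequence GTGGGAA and for the shorter core TGGGAA, which every GTGGGAA contains, on both strands. RefSeq promoter entries were found for 9 of the 10 genes by symbol, 11 entries in all with 2 each for Nod1 and Tlr1; Tlr4 was not matched. GTGGGAA was found in 2 of the 11 entries, those of Tlr2 and Tlr9, and in 5.42% of all 32851 promoters of the table. TGGGAA was found in 4 of the 11, of Nod1, Nod2, Tlr2 and Tlr9, and in 21.6% of all promoters. The entries of Tlr1, Tlr3, Tlr5, Myd88 and Nlrp6 held neither, nor did the other entry of Nod1. The promoters of Tlr2 and Tlr9 are shown because they hold the longer sequence, and that of Myd88 because its gene had the largest mean difference of those tested. They are RefSeq sequences of build GRCm38.p6, 5′ to 3′ on the gene's strand, and the capitals mark TTCCCAC, which is GTGGGAA read on the opposite strand. The Myd88 sequence has no match and no capitals.
Tlr2, chr3:83841609-83841858, minus strand: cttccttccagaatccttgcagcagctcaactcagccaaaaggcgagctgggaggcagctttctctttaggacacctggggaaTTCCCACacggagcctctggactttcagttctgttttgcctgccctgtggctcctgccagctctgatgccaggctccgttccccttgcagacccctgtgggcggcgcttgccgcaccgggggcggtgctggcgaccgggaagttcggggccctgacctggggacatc
Tlr9, chr9:106222348-106222597, plus strand: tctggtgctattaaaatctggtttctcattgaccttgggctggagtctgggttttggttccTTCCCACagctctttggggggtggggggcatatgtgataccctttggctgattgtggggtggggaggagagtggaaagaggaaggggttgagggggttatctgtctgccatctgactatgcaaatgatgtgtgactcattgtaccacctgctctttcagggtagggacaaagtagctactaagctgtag
Myd88, chr9:119340019-119340268, minus strand: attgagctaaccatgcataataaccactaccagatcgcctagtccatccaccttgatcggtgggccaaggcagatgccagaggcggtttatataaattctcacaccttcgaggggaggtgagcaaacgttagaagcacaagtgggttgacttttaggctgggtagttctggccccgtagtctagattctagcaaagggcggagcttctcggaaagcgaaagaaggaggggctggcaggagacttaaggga
In both matches the first base marked lies well upstream of the start, at -167 for Tlr2 and at -189 for Tlr9. A match describes the letters of this window and does not show binding. Tlr9 did not pass the test, and Tlr2 was too dim to be tested.

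Of the cell surface receptors, only Tlr1 read near or above the array median on all arrays. Tlr1, which pairs with Tlr2 to bind triacylated bacterial lipopeptides, read 0.858 and 1.77 in the depleted arrays and 1.41 in wild type (probe set 1449049_at). It was thus lower than wild type in depleted array 1, by -0.59 on the log2 scale, and higher in depleted array 2, by 0.28. The mean log2 difference was -0.15 (SE 0.57, limma adjusted p = 0.9997), with a 95% interval of -1.27 to 0.96.

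Tlr2, the receptor for bacterial lipoproteins, read 0.276 and 0.370 in the depleted arrays and 0.416 in wild type (1419132_at). Both depleted values were lower, by -0.34 and -0.10 on the log2 scale, but all 3 values lie below the array median and the gene's mean was under the minimum for testing. Tlr5, which binds bacterial flagellin, was listed far below the array median, at 0.029 and 0.044 in the depleted arrays against 0.016 in wild type (1450242_at). These values lie far under the pseudocount of 0.248, so that the log2 differences of 0.07 and 0.15 say little about the ratio, and the gene was not tested.

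Tlr4, which recognises lipopolysaccharide together with Ly96 and Cd14, was measured by 4 probe sets that went different ways. The brightest, 1418162_at, read 1.05 and 0.279 in the depleted arrays against 0.499 in wild type, so that depleted array 1 was higher by 0.80 on the log2 scale and depleted array 2 lower, at -0.50. Its mean over the arrays was just above the minimum of 0.598 for testing, and the mean log2 difference was 0.15 (SE 0.65, limma adjusted p = 0.9997). The remaining 3 stayed under 0.3 on every array and were not tested. Of these, 1418163_at read 0.298 and 0.140 in the depleted arrays against 0.077 in wild type, higher in both. In contrast 1430695_at read 0.050 and 0.047 against 0.157, lower in both, and 1442827_at read 0.193 and 0.117 against 0.153, on either side of wild type. The direction for Tlr4 therefore depends on the probe set.

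Both endosomal receptors were tested, and Tlr3 was well above the array median on its main probe set. Tlr3 binds double-stranded RNA, a product of viruses more than of bacteria, and signals through Ticam1 and not through Myd88. Its brighter probe set, 1422782_s_at, read 19.5 and 22.5 in the depleted arrays, a mean of 21.0 ± 2.15 (SD, n = 2), against 16.8 in wild type. Both depleted values were higher, by 0.21 and 0.42 on the log2 scale, and the mean difference was 0.32 (SE 0.45, limma adjusted p = 0.9997) with a 95% interval of -0.56 to 1.19. The second of these is to be set against that array's median of 0.22. The dimmer probe set, 1422781_at, read 1.01 and 2.49 against 1.48, lower in depleted array 1 and higher in depleted array 2. The probe sets thus went the same way in depleted array 2 and opposite ways in depleted array 1, where averaging them gave -0.12 in place of 0.21.

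Tlr9, the receptor for unmethylated CpG DNA, read 0.644 and 1.95 in the depleted arrays against 1.04 in wild type (1422083_at). Depleted array 1 was lower than wild type, by -0.53 on the log2 scale, and depleted array 2 was higher, by 0.77, so that the depleted arrays differed from each other more than either differed from wild type. The mean difference was 0.12 (SE 0.58, limma adjusted p = 0.9997).

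Myd88, the adaptor of the Toll-like receptors named here, Tlr3 excepted, and of interleukin-1 receptors, had the largest mean difference of the tested genes. It read 4.004 and 4.69 in the depleted arrays, a mean of 4.35 ± 0.48 (SD, n = 2), against 6.79 in wild type (1419272_at). Both depleted values lay below wild type, at 0.590 and 0.691 of it, and the depleted values lay nearer to each other than either did to wild type. The log2 difference was -0.73 in depleted array 1 and -0.51 in depleted array 2, with a mean of -0.62 (SE 0.49, limma adjusted p = 0.9997) and a 95% interval of -1.58 to 0.35. The direction held in each array with every scaling tried, and with quantile normalization the differences were -0.70 and -0.71.

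Of the cytosolic sensors, Nod1, which binds a peptidoglycan fragment typical of Gram-negative bacteria, read 1.58 and 1.68 in the depleted arrays, a mean of 1.63 ± 0.071 (SD, n = 2), against 1.13 in wild type (1454733_at). The depleted values were 1.41 and 1.495 times wild type and close to each other. The mean log2 difference was 0.45 (SE 0.56, limma adjusted p = 0.9997), with a 95% interval of -0.64 to 1.55. All 3 values lie near the array median, where the fit gives a wide error.

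Nlrp6, an intestinal epithelial sensor known in mice for control of goblet cell mucus secretion and of the microbiota, was bright on every array. It read 21.2 and 20.01 in the depleted arrays, a mean of 20.6 ± 0.86 (SD, n = 2), against 24.2 in wild type (1427369_at). The depleted values were 0.876 and 0.826 of wild type and lay close to each other. The mean log2 difference was -0.23 (SE 0.44, limma adjusted p = 0.9997), with a 95% interval of -1.10 to 0.63. With quantile normalization the difference in depleted array 2 was -0.59 in place of -0.27. Goblet cell markers, 8 of 8 with a probe set, summed to 932 and 777 in the depleted arrays against 585 in wild type. Of the 8, 7 were higher in both, against 39% of all tested genes. The exception was Muc2, the main intestinal mucin, at 127 and 62.6 against 67.2. Relative to each array's median 5 of the 8 were higher in both, against 29.9% of all tested genes. The 6 markers of absorptive and general epithelium and the 5 measured Paneth cell markers were all higher than wild type in both as well.

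**Figure D2:**
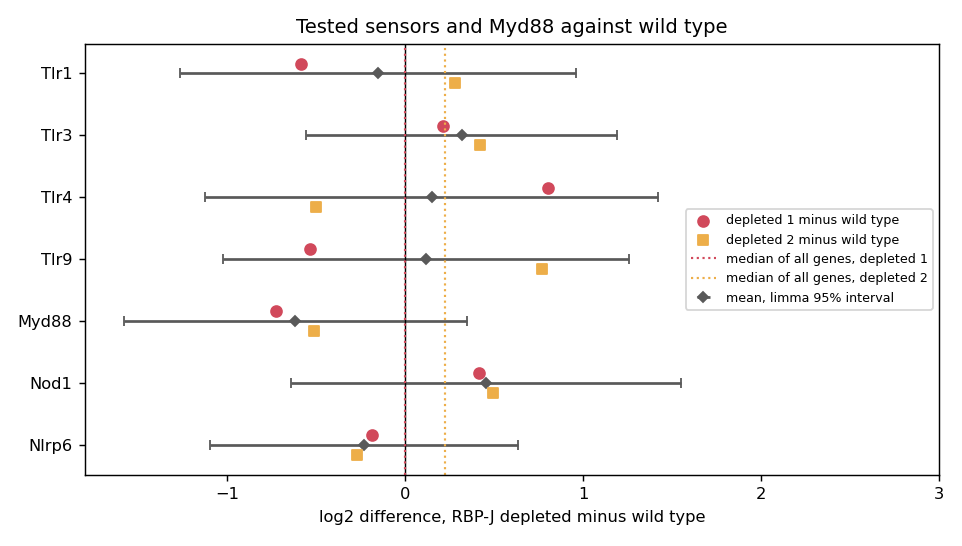
Log2 difference from wild type of the 7 tested genes in RBP-J depleted array 1 (circles) and depleted array 2 (squares), with the mean and its limma 95% interval (diamonds and bars); dotted lines are the medians over all tested genes, -0.003 and 0.22. Every interval includes 0, and the circles and squares fall on the same side of 0 for Tlr3, Myd88, Nod1 and Nlrp6 and on opposite sides for Tlr1, Tlr4 and Tlr9.

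The median log2 difference of the 7 tested genes was -0.19 in depleted array 1 and 0.28 in depleted array 2, against -0.003 and 0.22 over all tested genes. The intervals rest on a spread pooled over genes, since each gene has 1 residual degree of freedom and the single wild type array is taken to have the same spread as the depleted ones. Differences of up to about 2-fold in either direction lie inside several of them, so the missed threshold does not show that levels were alike.

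The partners of the receptors gave no call in any of the pathway lists. Among co-receptors and chaperones, 9 of 10 listed genes were tested, with medians of -0.32 and 0.32. In both depleted arrays 2 were higher and 3 lower than wild type, against 39% and 19.5% of all tested genes. Ly96, the secreted partner that holds lipopolysaccharide for Tlr4, read 4.26 and 3.99 in the depleted arrays against 5.90 in wild type, a log2 difference of -0.49 (SE 0.49). Cd14, which hands lipopolysaccharide to that complex, read 1.26 and 2.58 against 2.01, on either side of wild type. Unc93b1, which carries endosomal Toll-like receptors from the endoplasmic reticulum, read 2.84 and 2.67 against 3.45, and Cd180, a B cell relative of Tlr4, 1.48 and 2.55 against 2.70. Cd36, a scavenger receptor for lipids that also serves Tlr2, had the lowest unadjusted p of these lists after Slc15a2, at 0.0412 (limma adjusted p = 0.9997), and read 5.76 and 6.37 against 2.89. All 3 of its probe sets were higher in both depleted arrays, with log2 differences of 0.75 and 1.48 for one of the dimmer ones and of 0.20 and 0.25 for the other.

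Among adaptors and kinases, 13 of 16 were tested, with medians of 0.02 and 0.35. Of the 13, 6 were higher and 3 lower in both depleted arrays, against 39% and 19.5% of all tested genes. Ticam1, the adaptor of Tlr3, read 6.64 and 10.2 in the depleted arrays against 5.89 in wild type, a log2 difference of 0.46 (SE 0.48). Tirap, which bridges Myd88 to Tlr2 and Tlr4, read 2.32 and 3.07 against 3.35, and its other probe set read 2.29 and 0.747 against 3.13, so that both were lower in both arrays. Traf6, the ubiquitin ligase downstream of Myd88, read 3.30 and 4.21 against 4.07, and its 5 probe sets disagreed. Irak1, the kinase that Myd88 recruits, read 8.19 and 4.71 against 6.78, with 4 probe sets that disagreed too. Tbk1, the kinase that activates Irf3, read 22.0 and 20.4 against 15.5, and Irf7, an interferon regulatory factor, 11.7 and 13.2 against 9.17. Tab1, a subunit of the Map3k7 kinase complex, read 2.08 and 2.66 against 1.82. Sarm1, a TIR domain protein, read 0.713 and 0.130 against 1.15 on its brightest probe set, but a dimmer one was higher in both arrays, by 0.59 and 0.26 on the log2 scale.

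Among genes of NOD1 and NOD2 signalling, 8 of 10 were tested, with medians of 0.19 and 0.27. Of the 8, 4 were higher and 1 lower in both depleted arrays, against 39% and 19.5% of all tested genes. Ripk2 had no probe set of its own symbol. Xiap, a ubiquitin ligase of the Nod2 complex, read 9.84 and 9.93 in the depleted arrays against 8.34 in wild type, with dimmer probe sets that disagreed, and Birc2, a related ligase, 12.7 and 15.1 against 15.7. Slc15a2 and Slc15a3 are transporters of a family known to carry bacterial muropeptides. Slc15a2 read 1.29 and 0.829 against 0.149, a log2 difference of 1.70 (SE 0.63, unadjusted p = 0.00771, limma adjusted p = 0.9997). Its wild type value lies under the pseudocount, and its mean reached the minimum of 0.598 for testing only through the depleted arrays. Another of its 3 probe sets went the other way, at 0.050 and 0.521 against 1.02. Slc15a3 read 0.787 and 1.27 against 0.572.

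The inflammasome list holds Pycard and Casp1, through which Nlrp6 can act, but also other sensors such as Aim2 and Naip5. Of its 17 genes, 12 were tested, with medians of 0.22 and 0.38. In both depleted arrays 8 were higher and 0 lower, against 39% and 19.5% of all tested genes. Relative to the array medians 5 of the 12 were higher in both, against 29.9% of all tested genes, and none of the 12 had an unadjusted p under 0.05. Pycard, the adaptor that links sensors to caspase-1, read 56.1 and 79.3 in the depleted arrays against 64.6 in wild type, on either side of it. Casp1 read 35.04 and 48.4 against 30.7, a log2 difference of 0.42 (SE 0.42), and Gsdmd, the pore protein that caspase-1 cleaves, 47.6 and 65.3 against 42.6. Il18, the cytokine of this pathway that epithelium makes, read 6.46 and 10.2 against 8.62, and Il1b 1.80 and 2.84 against 1.47. Nek7, a partner of Nlrp3, read 9.88 and 9.15 against 6.18, while a second probe set gave log2 differences of -0.01 and 0.05. Its dimmest probe set was lower in both depleted arrays, by -0.31 and -0.20.

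Of the remaining NOD-like receptors, 5 of 8 were tested. Among these 5, 3 were higher and 1 lower in both depleted arrays, against 39% and 19.5% of all tested genes. Nlrc5, a transactivator of MHC class I genes, read 2.59 and 2.20 in the depleted arrays against 4.93 in wild type, a log2 difference of -0.98 (SE 0.51, unadjusted p = 0.0558, limma adjusted p = 0.9997). Nlrx1, a mitochondrial family member, read 1.83 and 1.69 against 1.01, Nlrp9b 11.4 and 7.93 against 6.76, and Nlrc3 3.78 and 2.77 against 2.76. A dimmer Nlrc3 probe set was lower in both, by -0.35 and -0.39 on the log2 scale. Of 6 further Toll-like receptors, 5 had a probe set and only Tlr12 was bright enough to test, at 0.557 and 0.710 against 0.653. A dimmer Tlr12 probe set read 0.68 and 0.75 against 0.358, higher in both depleted arrays.

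The inhibitors and the NF-kB response genes gave no call either. Of the inhibitors, 11 of 13 were tested, with medians of -0.02 and 0.30. In both depleted arrays 5 were higher and 3 lower, against 39% and 19.5% of all tested genes. Nfkbia, which holds NF-kB in the cytoplasm and is induced by it, read 75.1 and 85.3 in the depleted arrays against 59.0 in wild type, a log2 difference of 0.44 (SE 0.38). Its dimmer probe sets disagreed, with log2 differences of 0.35 and 0.29 for one and of -0.16 and 0.32 for another. Tnfaip3, which removes ubiquitin from Traf6 and Ripk2, read 25.3 and 32.1 against 26.1. Tollip and Sigirr, which restrain Toll-like and interleukin-1 receptor signalling, read 13.97 and 17.5 against 11.6 and 4.595 and 4.24 against 4.66. Irak3, the inhibitory IRAK, read 0.960 and 0.437 against 1.43, and Pparg 2.63 and 2.89 against 1.96. A dimmer Irak3 probe set gave log2 differences of -0.02 and 0.39.

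Of the NF-kB response genes, 15 of 19 were tested, with medians of -0.13 and 0.53. Among the 15, 5 were higher and 3 lower in both depleted arrays, against 39% and 19.5% of all tested genes. Relb read 10.8 and 12.3 in the depleted arrays against 7.92 in wild type, and the adhesion molecule Icam1 16.4 and 19.0 against 12.9. The neutrophil chemokines Cxcl1 and Cxcl2 read 0.444 and 0.671 against 1.32 and 0.320 and 0.959 against 1.53. Saa1, an acute phase protein chosen after its values were seen, was the only gene of this list with an unadjusted p under 0.05, at 0.0428 (limma adjusted p = 0.9997). It read 5.56 and 56.0 against 34.01, so that the depleted arrays lay on opposite sides of wild type.

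**Figure D3:**
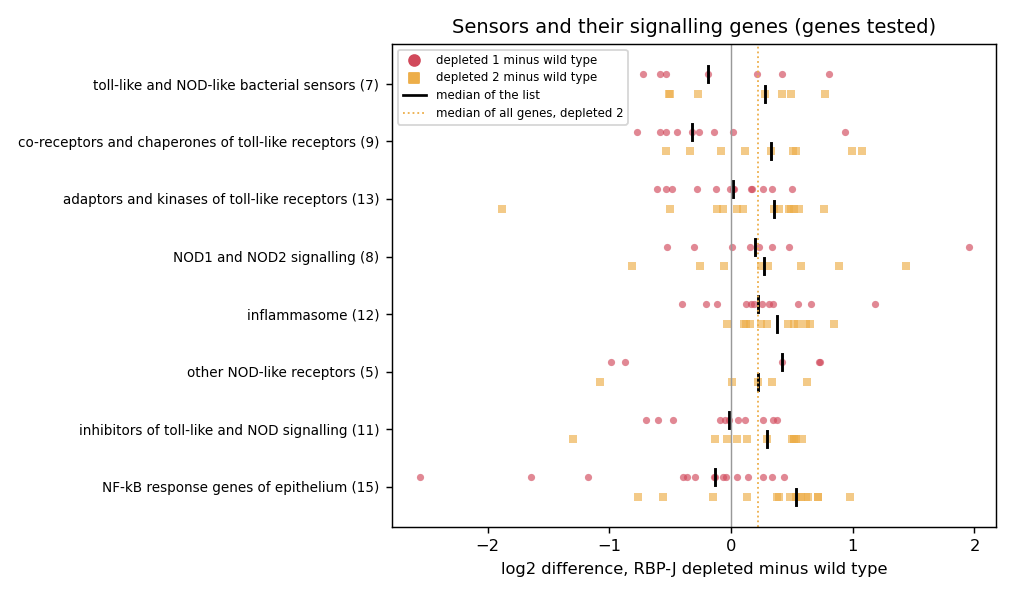
Log2 difference from wild type of each tested gene of the sensor set and of the 7 pathway lists with at least 5 tested genes, in RBP-J depleted array 1 (circles) and depleted array 2 (squares); black bars are list medians, and the dotted line is the median of all genes in depleted array 2, 0.22. The medians of the sensors are -0.19 and 0.28, and the inflammasome list has medians of 0.22 and 0.38.

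Several of these receptors are known to be made by lymphocytes and phagocytes, so markers of such cells were read in the same arrays. In RNA of a whole tissue sheet, fewer cells of a type and less RNA per cell cannot be told apart. The labelled epithelium carried its markers, with Epcam at 129 and 153 in the depleted arrays against 109 in wild type, and Gp2, the M cell receptor for bacterial fimbriae, at 9.90 and 32.6 against 19.8. B cell markers, 9 of 10 with a probe set, summed to 27.8 and 67.9 in the depleted arrays against 54.6 in wild type, and 1 of the 9 was higher than wild type in depleted array 1 and 5 in depleted array 2. Over all tested genes 49.8% were higher than wild type in depleted array 1 and 69.7% in depleted array 2. Ighm, the IgM heavy chain gene, read 9.72 and 27.0 against 13.1, and without it the other 8 markers summed to 18.1 and 40.9 against 41.5. Cd79a, of the B cell receptor, read 5.85 and 16.7 against 11.1. By contrast 4 of the 9, Ms4a1, Cd22, Pax5 and Cr2, were lower in both depleted arrays, against 19.5% of all tested genes. Ms4a1 read 4.12 and 6.73 against 11.05. Tlr1 and Tlr9 were lower in depleted array 1 and higher in depleted array 2. Macrophage and dendritic cell markers, 10 of 11 with a probe set, summed to 79.3 and 95.4 against 78.4. Most of each sum was Lyz2, at 55.7 and 70.0 against 56.8, and Mrc1 read 13.6 and 11.0 against 8.996. Of the 8 tested, 4 were higher and 2 lower in both depleted arrays, against 39% and 19.5% of all tested genes. Neutrophil markers, 5 of 6 with a probe set, summed to 1.04 and 4.35 against 2.33. No marker of these lists was at 0 on any array, which does not show that each was detected. Of the 5 neutrophil markers, 3 lay under the array median on every array. Adgre1, which defines most macrophages, read 0.127 and 0.098 against 0.151. Csf1r, the macrophage growth factor receptor, read 3.22 and 3.58 against 2.38 on its brightest probe set. Its dimmer probe sets disagreed with this: one read 1.747 and 2.006 against 2.117, lower in both depleted arrays. The other was lower than wild type in depleted array 1 and higher in depleted array 2. The 3′ to 5′ ratios of the Gapdh controls, which reflect RNA integrity, were 2.28 and 1.54 in the depleted arrays and 1.83 in wild type. The part of these markers and of RNA integrity in the sensors' values was not tested.

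**Figure D4:**
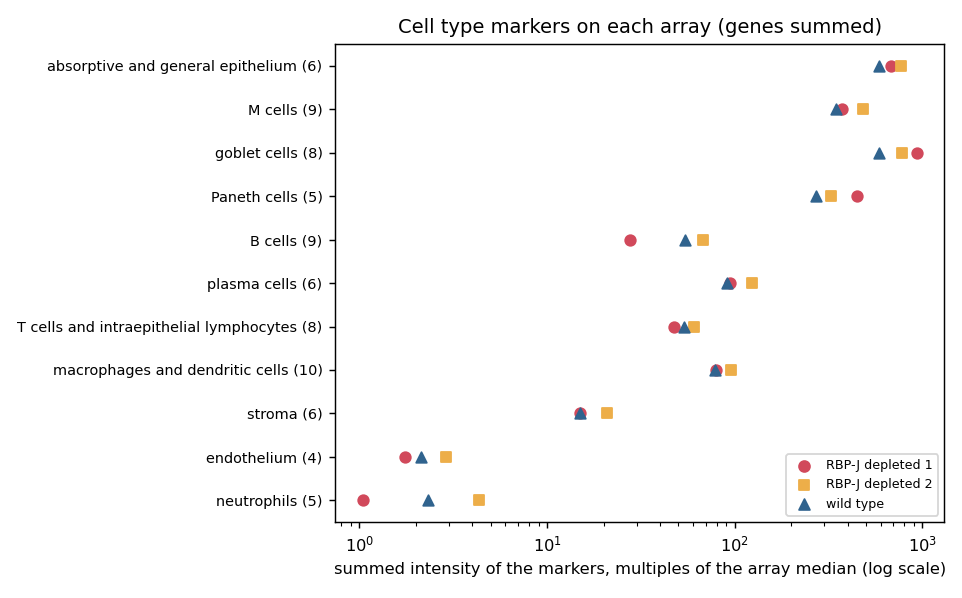
Summed intensity of the markers of each cell type, in multiples of the array median on a log axis, on RBP-J depleted array 1 (circles), depleted array 2 (squares) and the wild type array (triangles); the number of genes summed is in brackets. B cell markers sum to 27.8 and 67.9 in the depleted arrays and 54.6 in wild type, and goblet cell markers to 932 and 777 against 585.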

How the data were processed

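Follicle-associated epithelium was measured on 3 Affymetrix arrays, 2 RBP-J depleted and 1 wild type. The deposited table holds a linear intensity for each probe set on each array. MAS5 is named in the submitters' processing notes, and every array has a median of 1. Build and probe positions are not given in the sources used here. No 2 arrays were identical, and precision is limited by their number.

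The platform annotation gave the gene names. Of 45037 that are not controls, 34945 had 1 gene symbol, 932 several and 9160 were not listed. Each gene was represented by its brightest probe set over the 3 arrays, and the 11885 genes with a mean of at least 0.598, the 40th percentile of the table, were tested on the scale log2(value + 0.248), the pseudocount being the 25th percentile of all values. The test was limma 3.58.1 in R 4.3.3 (lmFit, eBayes with an intensity trend), with Benjamini-Hochberg adjustment over all tested genes and calls at an adjusted p under 0.05. The fit has 1 residual and 600 prior degrees of freedom per gene, and was tested on simulated data. A second count, with no test, took genes that differed from wild type 2-fold or more, one way, in each depleted array.

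The members and the gene lists were chosen with earlier results of these data known. The lists are Toll-like receptors outside the members, co-receptors and chaperones, adaptors and kinases, NOD1 and NOD2 signalling, inflammasome, other NOD-like receptors, inhibitors, NF-kB response genes, and markers of epithelium, M cells, goblet cells, Paneth cells, B cells, T cells and intraepithelial lymphocytes, plasma cells, phagocytes and dendritic cells, stroma, endothelium and neutrophils. The named genes are the members; direct partners; of each pathway list any called gene and up to 4 genes ranked by the smaller of their differences where both depleted arrays went one way; of each marker list its 2 brightest genes; and Rbpj and sex-linked genes as checks. Gp2, Muc2, Ms4a1, Cd22, Pax5, Cr2, Adgre1, Csf1r, Siglech, Saa1 and the Toll-like receptors outside the members were named after their values were seen. The sum of B cell markers without Ighm was added after seeing the data. Alternatives were the scaling, pseudocount, filter, choice of probe set, eBayes trend and leaving out each depleted array.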

Additional observations from a re-analysis of the deposited data

How the results depend on the processing

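Under other scalings, pseudocounts, filters, probe set rules and the trend setting, all 59 recomputed log2 differences of the 7 tested genes kept their direction and stayed uncalled. The filters, the trend setting and the use of every probe set left these differences as they were, so their direction could not change there. Averaging probe sets could move only Tlr3 and Tlr4. Of the 14 with 1 depleted array left out, 3 changed direction, 1 each for Tlr1, Tlr4 and Tlr9. No alternative gave a called sensor, or one that differed 2-fold from wild type in each depleted array. The count of called genes over all genes was 10 as reported, 3 after quantile normalization, 4 after scaling to 1 common 75th percentile, 1 without a filter and 6 when the filter stood at the 60th percentile. When each probe set was its own feature, 21 probe sets of 12 genes were called. The count of 2-fold genes was 38 with a pseudocount of 1, 7 with a pseudocount of 5, 286 without a filter, 66 under the stricter filter, 83 when a gene's probe sets were averaged, against 158, and 618 to 763 with 1 depleted array left out. With each probe set as its own feature 323 probe sets were 2-fold apart. The median difference of the sensors was -0.23 under the stricter filter, against 0.12; it leaves only Tlr3, Myd88 and Nlrp6. With depleted array 1 left out the median was 0.28, and with depleted array 2 left out -0.19. No paired analysis was possible because wild type has 1 array and the labels pair none. Dim probe sets, those of Tlr2, Tlr5 and most of Tlr4, limit what can be said of these receptors.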

Other observations

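Tlr7, an endosomal receptor for single-stranded RNA that is strong in plasmacytoid dendritic cells and lies on the X chromosome, was named after its values were seen and was too dim to be tested. Its brightest probe set read 0.253 and 0.296 in the depleted arrays against 1.01 in wild type, a second read 0.133 and 0.395 against 0.968, and the third 0.029 and 0.168 against 0.268, so that all 3 were lower in both depleted arrays. Siglech, a marker of plasmacytoid dendritic cells, read 0.582 and 2.85 in the depleted arrays against 3.99 in wild type (unadjusted p = 0.0093, limma adjusted p = 0.9997). Tlr13, also X-linked, read 0.300 and 0.381 against 0.653, and Tlr8, X-linked too, 0.014 and 0.037 against 0.017.

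Most of the remaining marker lists were not used beside a sensor. Paneth cell markers, 5 of 7 with a probe set, summed to 447 and 327 in the depleted arrays against 271 in wild type, with Lyz1, a Paneth lysozyme, at 160 and 153 against 130 and the lectin Itln1 at 123 and 82.0 against 68.8. M cell markers summed to 373 and 483 against 344, with Marcksl1 at 84.9 and 94.6 against 60.4 and Clu at 67.9 and 89.9 against 60.5. The goblet cell genes Zg16 and Spink4 read 174 and 199 against 135 and 155 and 125 against 100.2, and the epithelial Fabp2 158 and 192 against 138. Plasma cell markers summed to 94.1 and 123 against 90.9, T cell and intraepithelial lymphocyte markers to 47.2 and 60.7 against 53.5, stromal markers to 14.9 and 20.8 against 14.9, and endothelial markers to 1.75 and 2.88 against 2.13. The brightest of each were Xbp1 at 42.8 and 40.9 against 41.5 and Jchain at 16.4 and 44.2 against 22.0, Gzma at 31.2 and 35.6 against 34.4 and Cd8a at 3.12 and 7.70 against 6.08, Vim at 12.3 and 16.6 against 13.0 and Pdpn at 0.997 and 1.29 against 0.517, and Pecam1 at 1.03 and 1.77 against 1.64 and Cdh5 at 0.456 and 0.512 against 0.308. A dimmer Cd8a probe set read 5.64 and 6.28 against 4.21, higher in both depleted arrays. For Vim a dimmer probe set read 4.835 and 5.515 against 7.16, lower in both. The neutrophil genes S100a8 and S100a9 read 0.201 and 1.21 against 1.14 and 0.133 and 2.33 against 0.590.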
